A study of Mus musculus with 8 samples.

Results

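The collagen chains are described here as RNA levels in mouse colon. They were chosen by name, as every annotated gene called Col, a number, the letter a and a second number with nothing after it. The rule gave 44 chains of 54665 annotated genes listed in all 8 libraries. No measured value entered the rule. The rule and the marker and gene lists below were, however, chosen with earlier results of these data known. Of the 44 chains, 11 were fibrillar, 6 were type IV chains of basement membranes and 27 were other chains.

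The libraries came from BALB/cA mice that lacked DCIR (DCIR-/-, knockout) or were wild type. DCIR is an inhibitory C-type lectin receptor of myeloid cells, and its mouse gene is Clec4a2. Each genotype had 1 library at each of 4 stages: steady state, day 12 of a DSS course (dextran sulfate sodium, a colitis-inducing agent), and non-polyp tissue and polyps at day 112 of azoxymethane with DSS (AOM-DSS, which induces colon tumours). With 1 library per group, no difference between a single pair of libraries has a replicate check, and the p-values below come from 1 additive model of stage and genotype over all 8 libraries. The deletion is labelled as a whole-animal genotype, the age of the animals is not given in the sources used here, and the design text speaks of 1 biological replicate per sample.

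Collagens are trimers of chains wound into a triple helix. Fibrillar types I, III and V build the fibres that give connective tissue its strength, and in the gut they are made mainly by fibroblasts and muscle. Type IV chains form the sheet-like network of basement membranes under epithelium and around vessels and muscle, whereas the other chains sit on fibrils, form beaded filaments or fine networks, anchor epithelium or span the cell membrane.

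The deleted gene and tissue markers were checked first. Clec4a2 was listed at 0 TPM (a transcript level scaled for gene length and library total) in 3 knockout libraries and at 2.74 to 4.33 TPM in the 4 wild-type libraries. The steady-state library labelled knockout held 0.659 TPM, so it is named by its label throughout. The 7 epithelial markers summed to 8253 to 12204 TPM in every library. The 6 markers of WNT-active epithelium summed to 1395 to 1699 TPM in both polyp libraries and in the library labelled knockout non-polyp, and to 35.8 to 54.2 TPM in the other 5. The 8 smooth muscle markers summed to 469 to 756 TPM in those same 3 libraries, against 5822 to 10514 TPM in the other 5. The library labelled knockout non-polyp therefore stood with the polyps in these markers. Model results for collagen chains that rest on it are given with and without it, and those for other gene lists with it only. The 7 male accessory gland markers summed to 3553 to 5752 TPM at steady state and on DSS and to 1.36 to 14.4 TPM at day 112, where Xist stood at 63.0 to 104 TPM and the Y-linked gene Ddx3y at 0. At steady state and on DSS, Xist stood at 0.114 TPM or less and Ddx3y at 18.4 TPM or more. By these genes the day 112 libraries read as female and the steady-state and DSS libraries as male. Day 112 can therefore not be told apart from a difference in sex and gland transcripts when it is set against steady state or DSS. In bulk tissue, fewer cells of a type and less RNA per cell cannot be told apart.

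Collagen transcripts were lowest in knockout DSS colon and highest in the steady-state library labelled knockout. The 44 chains summed to 1740, 827, 1447 and 1331 TPM in the knockout libraries and to 1284, 1508, 998 and 1078 TPM in the wild-type libraries, each in the order steady state, DSS, day 112 non-polyp, day 112 polyp. That order holds for every set of 4 values below, so the first of 4 knockout values is always from the steady-state library named by its label. As a share of annotated TPM this was 0.185%, 0.0902%, 0.156% and 0.142% in knockout libraries and 0.141%, 0.165%, 0.111% and 0.116% in wild-type libraries. The knockout sum was above the wild-type sum at 3 stages and below it on DSS.

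Fibrillar chains held 50.7% to 59.6% of collagen TPM in knockout libraries and 48.2% to 62.9% in wild-type libraries. Their share was 57.0% to 62.9% in the 4 steady-state and DSS libraries of both genotypes and 48.2% to 51.1% in the 4 day 112 libraries. Type IV chains held the opposite order, with 17.6% to 20.2% at day 112 and 12.6% to 15.7% at steady state and on DSS. The 27 other chains held 24.2% to 32.9%.

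**Figure D1:**
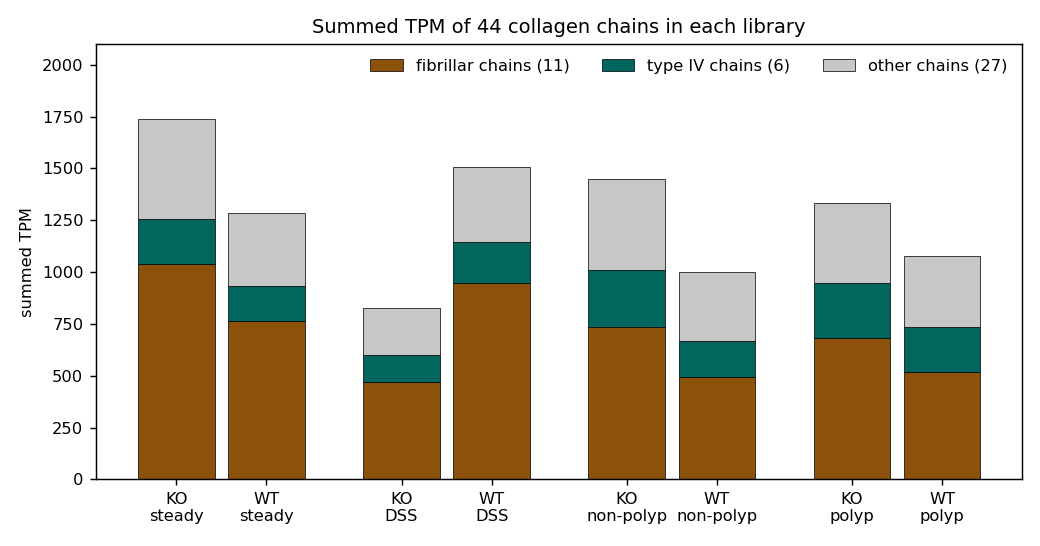
Summed TPM of the 44 collagen chains in each of the 8 libraries (1 bar per library, stacked by class; the vertical axis is summed TPM and starts at 0; no error bars, since each group is 1 library). The tallest bar is the steady-state library labelled knockout at 1740 TPM and the shortest is knockout DSS at 827 TPM.

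Type III and type I chains were the most abundant fibrillar transcripts. Col3a1 (ENSMUSG00000026043, GRCm38 chr1:45311538-45349706), the single chain of type III collagen, had 531, 237, 297 and 271 TPM in knockout libraries and 452, 480, 255 and 201 TPM in wild-type libraries. Col1a1 (ENSMUSG00000001506, chr11:94936224-94953042), which supplies most of the type I trimer, had 151, 73.3, 175 and 182 TPM in knockout libraries and 116, 167, 87.6 and 127 TPM in wild-type libraries. Its partner Col1a2 (ENSMUSG00000029661, chr6:4504814-4541544) had 249, 111, 178 and 145 TPM in knockout libraries and 114, 209, 80.4 and 136 TPM in wild-type libraries. All 3 chains were lower in the knockout than in the wild-type library on DSS and higher at the other 3 stages.

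Type V chains, which start and limit the width of type I fibrils, followed the same arrangement. Col5a1 had 42.0, 19.3, 27.4 and 28.3 TPM in knockout libraries and 32.6, 32.7, 26.5 and 19.5 TPM in wild-type libraries. Col5a2, whose gene lies next to Col3a1 on chromosome 1, had 44.2, 20.3, 39.0 and 35.9 TPM in knockout libraries and 33.3, 41.7, 27.2 and 24.5 TPM in wild-type libraries. Both chains were lowest in knockout DSS colon among the knockout libraries and lower there than in wild-type DSS colon.

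The other fibrillar chains were scarcer. Col5a3 ranged from 5.39 to 11.8 TPM over the 8 libraries. Col27a1, a fibrillar chain known from cartilage, had 5.45, 2.28, 1.81 and 3.39 TPM in knockout libraries and 3.17, 3.20, 5.20 and 2.13 TPM in wild-type libraries. Col11a2, a type XI chain, had 1.99, 3.14, 2.66 and 3.42 TPM in knockout libraries and 1.76, 2.82, 1.06 and 1.21 TPM in wild-type libraries. The knockout value of Col11a2 was the higher one at each stage, whereas Col27a1 was higher in knockout at steady state and in polyps only.

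The proportions between fibrillar chains differed among libraries. The ratio of Col3a1 to Col1a1 was 3.51, 3.23, 1.69 and 1.49 in knockout libraries and 3.89, 2.87, 2.91 and 1.58 in wild-type libraries. The 2 polyp libraries and the library labelled knockout non-polyp were thus the 3 lowest. Col1a1 to Col1a2 ranged from 0.608 in the steady-state library labelled knockout to 1.25 in knockout polyps, although both chains enter the same type I trimer. Col5a1 to Col5a2 kept within 0.703 to 0.981.

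**Figure D2:**
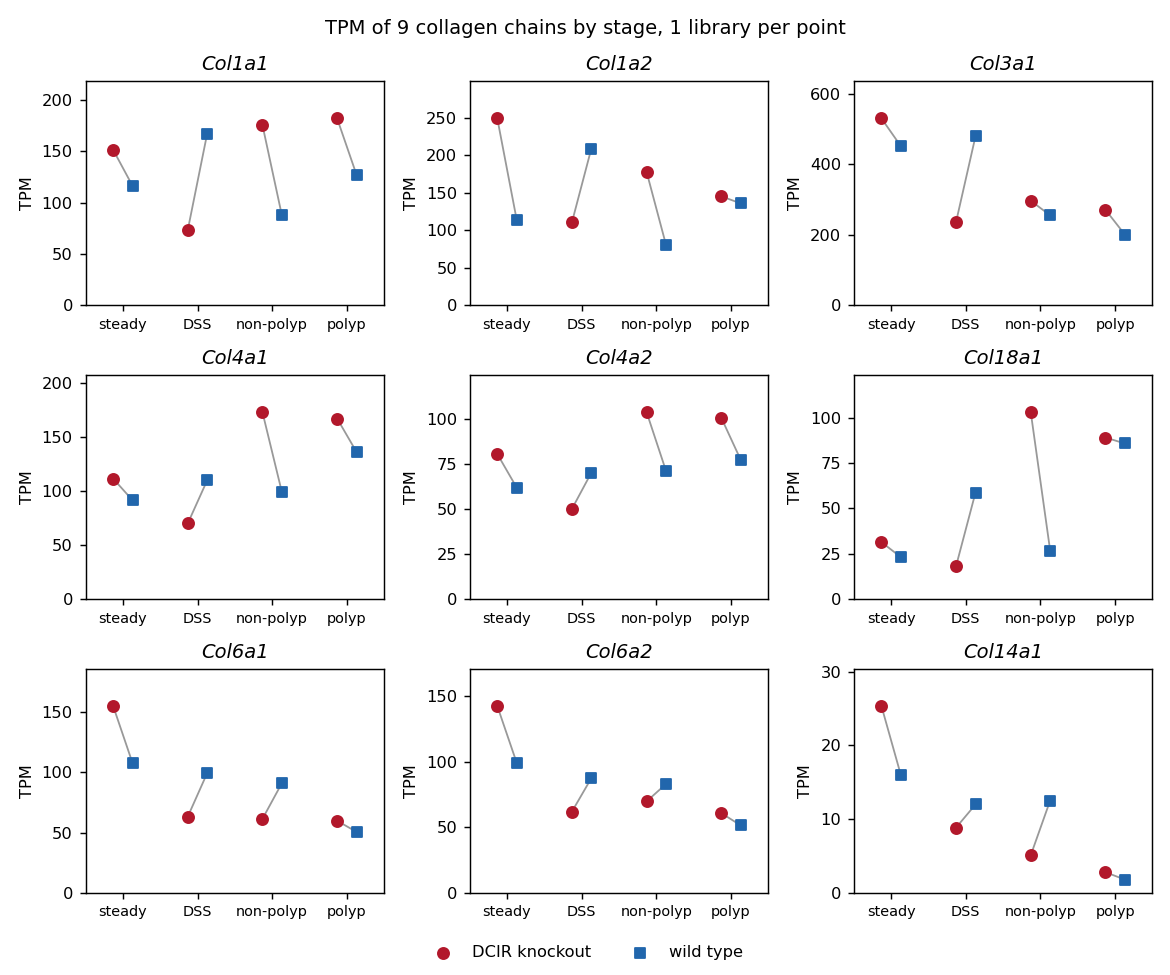
TPM (vertical axes, each starting at 0) of 9 of the more abundant collagen chains at each stage, with the library labelled knockout as a circle left of the wild-type library as a square, 1 library per point and no error bars. On DSS the circle lies below the square in all 9 panels, for example 237 against 480 TPM for Col3a1 and 18.2 against 58.8 TPM for Col18a1.

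The main basement membrane chains, Col4a1 and Col4a2, which join in a single trimer, kept a nearly fixed ratio. Col4a1 (ENSMUSG00000031502, chr8:11198423-11312826) had 112, 70.1, 173 and 167 TPM in knockout libraries and 91.4, 110, 99.1 and 136 TPM in wild-type libraries. Col4a2 (ENSMUSG00000031503, chr8:11312805-11449287) had 80.4, 49.9, 104 and 100.4 TPM in knockout libraries and 61.7, 70.0, 71.0 and 77.2 TPM in wild-type libraries. The ratio of Col4a1 to Col4a2 was 1.39 to 1.77 over all 8 libraries, a narrower span than for Col1a1 to Col1a2. Both were highest in the library labelled knockout non-polyp and in knockout polyps.

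The minor type IV chains followed another course. Col4a5 (ENSMUSG00000031274, chrX:141475385-141689234) had 13.7, 5.19, 1.30 and 1.45 TPM in knockout libraries and 10.1, 6.28, 4.90 and 1.25 TPM in wild-type libraries. Col4a6 (ENSMUSG00000031273, chrX:141165403-141474076), which pairs with Col4a5 in basement membranes around smooth muscle, had 13.3, 4.21, 0 and 0.0127 TPM in knockout libraries and 7.79, 7.69, 0.0897 and 0.0109 TPM in wild-type libraries. Col4a6 thus stood at 4.21 to 13.3 TPM in all 4 steady-state and DSS libraries and under 0.1 TPM in all 4 day 112 libraries. Col4a5 was lowest in the 2 polyp libraries and the library labelled knockout non-polyp, and intermediate at 4.90 TPM in wild-type non-polyp tissue. Col4a3 and Col4a4, the chains of kidney filtration membranes, reached at most 0.328 and 0.424 TPM.

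Type IV genes lie in head-to-head pairs, and their start regions are shown because the 2 pairs behaved differently. The windows are RefSeq promoters on GRCm38.p6, 5' to 3' on the gene's strand, with 250 bases before and 50 bases after the start. Col4a1 is on the minus strand at chr8:11312777-11313076 and Col4a2 on the plus strand at chr8:11312555-11312854, and these windows share 78 bases on opposite strands. Capitals mark a separate CCAAT box in each of these windows, and neither box lies wholly within the shared bases. The Col4a1 box is read as ATTGG on the Col4a1 strand at position -145 from the start. The Col4a2 box is read as CCAAT on the Col4a2 strand at position -32. Col4a5 is on the plus strand at chrX:141475169-141475468, with a CCAAT box in capitals at -196, and Col4a6 is on the minus strand at chrX:141474027-141474326, with a GC box (GGGCGG, read as CCGCCC) in capitals at -21. These last windows are 842 bases apart.
Col4a1: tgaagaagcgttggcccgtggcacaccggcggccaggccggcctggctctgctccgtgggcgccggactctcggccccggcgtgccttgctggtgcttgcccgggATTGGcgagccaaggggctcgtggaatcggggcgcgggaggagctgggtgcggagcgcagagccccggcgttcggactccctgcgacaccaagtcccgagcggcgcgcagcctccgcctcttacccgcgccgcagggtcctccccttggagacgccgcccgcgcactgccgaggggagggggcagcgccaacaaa
Col4a2: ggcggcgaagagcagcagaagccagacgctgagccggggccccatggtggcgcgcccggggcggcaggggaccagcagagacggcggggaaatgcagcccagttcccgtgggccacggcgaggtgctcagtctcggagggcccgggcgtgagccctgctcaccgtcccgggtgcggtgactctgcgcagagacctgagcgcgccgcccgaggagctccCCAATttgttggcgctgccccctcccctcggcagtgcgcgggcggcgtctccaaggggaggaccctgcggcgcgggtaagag
Col4a5: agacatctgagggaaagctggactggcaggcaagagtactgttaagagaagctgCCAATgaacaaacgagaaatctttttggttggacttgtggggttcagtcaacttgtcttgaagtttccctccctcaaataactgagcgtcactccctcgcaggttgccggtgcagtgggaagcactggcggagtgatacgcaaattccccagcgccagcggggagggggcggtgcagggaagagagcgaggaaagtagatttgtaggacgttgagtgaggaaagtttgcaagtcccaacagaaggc
Col4a6: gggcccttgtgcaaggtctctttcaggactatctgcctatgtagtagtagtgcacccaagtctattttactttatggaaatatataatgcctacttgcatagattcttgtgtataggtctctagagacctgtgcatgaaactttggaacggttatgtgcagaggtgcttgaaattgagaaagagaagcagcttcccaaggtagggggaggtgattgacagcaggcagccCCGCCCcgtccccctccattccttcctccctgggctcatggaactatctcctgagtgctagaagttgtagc

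Searched on both strands, CCAAT was found in 37.4% of all 32851 promoter windows and in those of 13 of the 35 collagen genes that had a window. GGGCGG was found in 35.7% of all windows and in those of 22 collagen genes. Col4a1, Col4a2, Col4a5 and Col4a6 were all among these, although the GC box is marked only for Col4a6. It therefore does not set Col4a6 apart from the other chains shown. These matches describe letters in the window and say nothing about binding. Besides the windows, 22 exon bases of Col4a1 and Col4a2 overlap on opposite strands, and the sources used here do not say whether reads were counted by strand.

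Among the beaded-filament chains of type VI, which link cells to the surrounding matrix, Col6a1 and Col6a2 were abundant and kept a close ratio. Col6a1 (chr10:76708792-76726168) had 155, 63.2, 61.3 and 59.7 TPM in knockout libraries and 108, 99.3, 90.9 and 50.5 TPM in wild-type libraries. Col6a2 (chr10:76595762-76623630) had 143, 62.0, 69.8 and 60.8 TPM in knockout libraries and 99.2, 87.5, 83.1 and 51.5 TPM in wild-type libraries. Their ratio stayed between 0.879 and 1.14. Col6a3, the long chain of the same trimer, had 25.7, 15.8, 22.4 and 23.5 TPM in knockout libraries and 20.2, 25.0, 27.5 and 12.9 TPM in wild-type libraries. The ratio of Col6a1 to Col6a3 ran from 2.54 in knockout polyps to 6.02 in the steady-state library labelled knockout, so this chain did not keep the proportion of the other pair. Col6a4 ranged from 2.90 to 10.01 TPM and Col6a5 from 2.60 to 6.26 TPM.

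Fibril-associated chains, which decorate the surface of fibrils, included the chains with the largest log2(TPM + 1) differences between genotypes. Col9a2 (ENSMUSG00000028626, chr4:121039385-121055322), a type IX chain best known from cartilage, had 1.44, 1.69, 46.1 and 36.1 TPM in knockout libraries and 0.909, 1.75, 1.53 and 35.6 TPM in wild-type libraries. Its partner Col9a3 (ENSMUSG00000027570, chr2:180597790-180622189) had 0.808, 0.395, 15.6 and 12.7 TPM in knockout libraries and 0.422, 0.450, 0.361 and 27.2 TPM in wild-type libraries. Both chains were high in the same 3 libraries, namely the 2 polyp libraries and the one labelled knockout non-polyp. The third type IX chain, Col9a1, reached at most 0.482 TPM, and the cartilage collagen gene Col2a1 at most 0.222 TPM. Of 5 cartilage and bone markers, the bone sialoprotein gene Ibsp had 5.98 to 8.64 TPM in those 3 libraries and at most 0.0965 TPM in the other 5, whereas the aggrecan gene Acan reached at most 0.309 TPM. The WNT-active epithelium markers were high in those same 3 libraries, and their part in the type IX levels was not tested.

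The Col9a2 start region is shown because this chain had the largest knockout minus wild type difference of a single pair, given below. It is the RefSeq window at chr4:121039316-121039615 (plus strand, GRCm38.p6), inside which the deposited gene row begins. Capitals mark CTTTGAT at position -178 from the RefSeq start. It is a core of the sequence that TCF/LEF factors, which act in WNT signalling, are known to bind. The deposited gene row begins at chr4:121039385, ahead of these letters, so they lie inside that row and not upstream of it.
Col9a2: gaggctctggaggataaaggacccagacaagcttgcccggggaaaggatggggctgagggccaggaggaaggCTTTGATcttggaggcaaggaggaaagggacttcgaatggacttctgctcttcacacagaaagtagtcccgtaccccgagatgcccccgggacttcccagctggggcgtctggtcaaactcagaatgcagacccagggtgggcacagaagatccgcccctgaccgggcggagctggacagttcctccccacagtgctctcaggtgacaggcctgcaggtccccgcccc

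CTTTGAT or CTTTGAA, on either strand, was found in 8.65% of all windows and in those of 5 collagen genes, namely Col13a1, Col15a1, Col6a2, Col9a1 and Col9a2. No window was used here for Col9a3.

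Of the other fibril-associated chains, Col14a1 and Col16a1 were the most abundant. Col14a1 (chr15:55307750-55520803), which binds decorin on fibrils, had 25.3, 8.85, 5.09 and 2.80 TPM in knockout libraries and 16.0, 12.0, 12.5 and 1.80 TPM in wild-type libraries. Col16a1 had 25.5, 19.8, 42.8 and 29.3 TPM in knockout libraries and 25.2, 27.3, 22.7 and 28.5 TPM in wild-type libraries. Col14a1 was lowest in polyps of both genotypes, whereas 7 of the 8 Col16a1 values lay between 19.8 and 29.3 TPM. Col12a1 ranged from 3.82 to 13.1 TPM and Col20a1 from 1.87 to 5.99 TPM.

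Chains of the basement membrane zone included Col18a1 (chr10:77052178-77166548), the heparan sulfate collagen from which endostatin is cut. It had 31.4, 18.2, 103 and 89.1 TPM in knockout libraries and 23.1, 58.8, 26.7 and 85.8 TPM in wild-type libraries. Col15a1, its close relative in vessels and muscle, had 28.4, 10.3, 15.4 and 16.8 TPM in knockout libraries and 18.6, 19.8, 13.8 and 12.6 TPM in wild-type libraries. Col18a1 was therefore above 85 TPM in both polyp libraries and in the library labelled knockout non-polyp, next in wild-type DSS colon and at most 31.4 TPM elsewhere. Col7a1, the anchoring fibril chain of epithelium, ranged from 0.779 to 2.37 TPM.

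Of the remaining chains, Col17a1, the hemidesmosome collagen of epithelial cells, had 0.988, 0.739, 5.18 and 6.73 TPM in knockout libraries and 0.527, 1.71, 0.318 and 2.88 TPM in wild-type libraries. Col8a1, a short chain of vessel and wound matrix, had 5.68, 2.83, 4.34 and 4.56 TPM in knockout libraries and 8.37, 3.41, 6.08 and 1.65 TPM in wild-type libraries. Col8a2, its partner, had 4.51, 0.447, 0.0606 and 0.0166 TPM in knockout libraries and 3.21, 0.4001, 2.24 and 0.0978 TPM in wild-type libraries. Col17a1 was highest in the 3 WNT-high libraries, and Col8a2 was low in those 3 and in both DSS libraries. Col28a1, a chain described around glia in peripheral nerve, had 4.02, 1.82, 0.508 and 0.648 TPM in knockout libraries and 3.22, 2.85, 4.32 and 0.736 TPM in wild-type libraries. The 5 glia markers summed to 20.5, 11.8, 1.15 and 0.856 TPM in knockout libraries and to 11.6, 16.6, 34.2 and 1.32 TPM in wild-type libraries, so they were low in the same 3 libraries as Col28a1, and their part in it was not tested. Col13a1 ranged from 1.42 to 3.20 TPM and Col23a1 from 1.53 to 8.73 TPM.

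A mean of at least 1 TPM over the 8 libraries was required for testing, which 32 of the 44 chains met. The 12 chains below it were Col2a1, Col11a1, Col24a1, Col4a3, Col4a4, Col6a6, Col9a1, Col19a1, Col22a1, Col10a1, Col25a1 and Col26a1. They ranged from 0 to 1.08 TPM, and 5 of them were listed at 0 in at least 1 library. Differences below are on the log2(TPM + 1) scale, which understates the change of scarce chains.

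Knockout and wild-type libraries were then compared stage by stage, with no test. At steady state, 31 of the 32 chains were higher in the library labelled knockout, where 63% of all 16855 genes tested were higher. The chains' median log2 difference was 0.38 and that of all genes 0.09. Only Col1a2 was at least 2-fold higher, with a log2 difference of 1.12, and none was 2-fold lower, against 3.59% and 1.18% of all genes. Col8a1 was the chain that was lower, by a log2 difference of -0.49. The 9 fibroblast markers summed to 1373 TPM in the library labelled knockout and 1076 TPM in wild type, with 8 of 9 higher, and the 6 adipocyte markers to 678 TPM in the library labelled knockout and 59.8 TPM in wild type. Their part in the collagen difference was not tested.

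On DSS the direction was turned round. There, 28 of the 32 chains were lower and 4 higher in the knockout library, where 43.6% of all genes were higher. The median log2 difference was -0.49 for the chains and -0.05 for all genes. The 4 chains at least 2-fold lower were Col18a1 at -1.64, Col1a1 at -1.18, Col3a1 at -1.02 and Col5a2 at -1.004, and none was 2-fold higher, against 2.8% and 1.86% of all genes. Of the 8 fibrillar chains, 7 were lower, with a median of -0.91. All 4 type IV and all 5 type VI chains were lower, with medians of -0.56 and -0.63. The 9 fibroblast markers summed to 798 TPM in knockout and 1191 TPM in wild-type DSS colon, and 8 of 9 were lower. The 8 smooth muscle markers summed to 6977 TPM in knockout and 5822 TPM in wild-type DSS colon. Within the male accessory gland list these 2 libraries stood apart. Svs5 and Svs4, seminal vesicle secretion genes, had 662 and 541 TPM in knockout DSS colon and 0.540 and 1.08 TPM in wild-type DSS colon, and Msmb, a prostate secretion gene, had 0.174 TPM in knockout and 327 TPM in wild type. The part of the fibroblast and gland markers in the collagen difference was not tested.

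In day 112 non-polyp tissue the chains split, with 19 higher and 13 lower in the library labelled knockout, where 61.4% of all genes were higher. The 5 chains at least 2-fold higher were Col9a2 at 4.22, Col9a3 at 3.61, Col17a1 at 2.23, Col18a1 at 1.91 and Col1a2 at 1.13, against 14.7% of all genes. The 5 at least 2-fold lower were Col28a1 at -1.82, Col8a2 at -1.61, Col4a5 at -1.36, Col14a1 at -1.15 and Col27a1 at -1.14, against 9.94% of all genes. Wild-type polyps differed from wild-type non-polyp tissue at least 2-fold in 12 chains, 5 higher and 7 lower, against 9.14% and 9.8% of all genes. Knockout polyps differed at least 2-fold from the library labelled knockout non-polyp in 0 of 32 chains, with differences between -0.68 and 0.64, against 2.87% of all genes. This non-polyp comparison therefore set a library that resembled polyps in its markers against one that did not.

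In polyps, 28 of the 32 chains were higher in the knockout library, where 63.1% of all genes were higher, and the medians were 0.27 for the chains and 0.13 for all genes. Col8a1 at 1.07 and Col11a2 at 1.00 were at least 2-fold higher, against 3.67% of all genes. Col9a3 at -1.04 was the single chain at least 2-fold lower, against 2.24% of all genes. All 8 fibrillar chains were higher in knockout polyps, by 0.10 to 1.00. The fibroblast markers summed to 838 TPM in knockout and 829 TPM in wild-type polyps.

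These directions depend in part on scaling. When libraries were rescaled by median-of-ratios factors, the all-gene median was lowered by 0.09 at steady state, 0.20 in non-polyp tissue and 0.15 in polyps. The chains higher in knockout then numbered 29 of 32 at steady state, 6 of 32 on DSS, 14 of 32 in non-polyp tissue and 22 of 32 in polyps. Thus the steady-state and DSS directions stayed, the balance in non-polyp tissue turned to more chains lower, and that in polyps was reduced. No chain was then 2-fold higher in knockout polyps, and 2 were 2-fold lower on DSS.

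**Figure D3:**
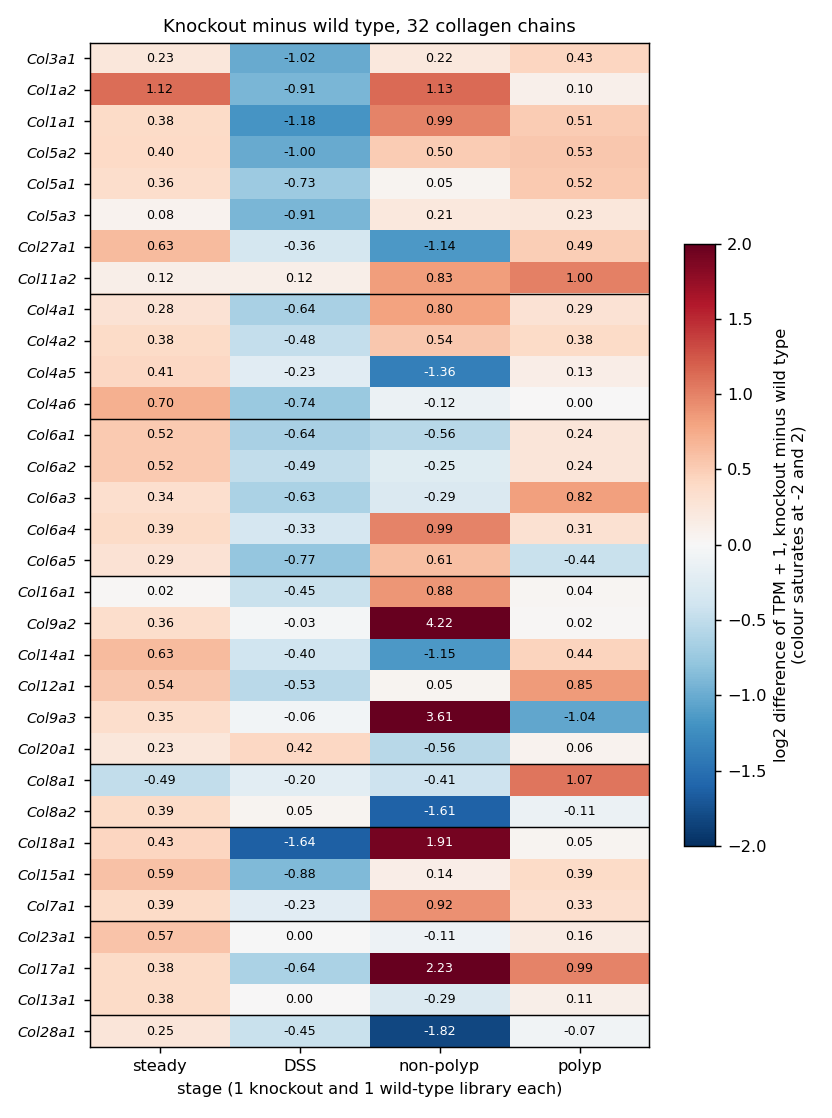
Log2 difference of TPM + 1, knockout minus wild type, for 32 collagen chains (vertical axis, grouped by class with black lines between classes) at 4 stages (horizontal axis), 1 library of each genotype per cell, with the value printed and colour from blue (lower in knockout) to red (higher). The DSS column is blue in 28 of 32 chains, and the non-polyp column holds both the highest value, 4.22 for Col9a2, and the lowest, -1.82 for Col28a1.

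In 6 libraries the deposited rows include loci that the software assembled itself, and taking the highest such locus at a gene in place of its annotated row moved some of these values. Col1a2 was then 0.58 at steady state and 0.53 in non-polyp tissue, Col17a1 was 0.98 in non-polyp tissue, and Col11a2 was 0.37 and Col8a1 0.51 in polyps. In non-polyp tissue Col14a1 was -0.88. All 6 values kept their direction and were under 2-fold. Col9a2 and Col9a3 in non-polyp tissue were 3.49 and 2.76, and Col18a1 was 1.89. In non-polyp tissue 29 of 32 chains had a locus in both libraries, and Col8a2 and Col28a1 were not among them. The DSS libraries were not compared in this way. In the 6 libraries 174 chain values were at least 1 TPM, and 143 of them equalled no locus within 0.1%. For 76 of those the summed loci were more than 1.5 times off. Col3a1 had 848 TPM as a locus against 531 TPM as annotated in the steady-state library labelled knockout. In steady-state wild type Col3a1 had 732 against 452 TPM and Col1a2 166 against 114 TPM. The ranges, class shares and chain ratios above rest on annotated rows.

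Within each genotype, DSS was set against steady state. In knockout DSS colon 30 of 32 chains were lower than in the steady-state library labelled knockout, where 67.6% of all genes were lower. Of the chains 13 were at least 2-fold lower, against 7.42% of all genes, and the median was -0.82 against -0.20 for all genes. In wild type, 21 of 32 chains were higher on DSS, where 44.8% of all genes were higher, with a median of 0.09 against -0.04 for all genes. At least 2-fold higher was 1 chain and 2-fold lower were 2, against 2.73% and 3.73% of all genes, shares close to the background. All 8 wild-type fibrillar differences were positive, by 0.00 to 0.87, whereas 7 of 8 were negative between the libraries labelled knockout, with a median of -1.06. Col18a1 was at 58.8 TPM on DSS and 23.1 TPM at steady state in wild type, and at 18.2 TPM in knockout DSS colon and 31.4 TPM in the steady-state library labelled knockout. Whether the response to DSS differed between genotypes was not tested, as each combination is 1 library. Col8a2 and Col8a1 were lower on DSS in both genotypes.

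In the additive model, DSS minus steady state called 0 of 32 chains at an adjusted p under 0.05 (limma with Benjamini-Hochberg adjustment), as it did for 0% of all genes. At an unadjusted p under 0.05 were 2 chains, against 5.36% of all genes. They were Col8a2 at -1.76 ± 0.53 (SE, limma adjusted p = 0.879) and Col6a2 at -0.68 ± 0.27 (limma adjusted p = 0.879). In this fit 26 chains were lower and 6 higher. Without the knockout DSS library the median of the chains was 0.15 with 17 of 32 higher, and without the wild-type DSS library it was -0.82 with 31 of 32 lower, so the average stands for neither genotype.

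Knockout minus wild type over all stages called 0 of 32 chains and 0% of all genes, and 0 chains were at an unadjusted p under 0.05, against 4.37% of all genes. The largest differences were Col9a2 at 1.14 ± 0.75 (SE, limma adjusted p = 0.705), Col17a1 at 0.74 ± 0.47 and Col9a3 at 0.71 ± 0.74. Without the library labelled knockout non-polyp they were 0.11, 0.25 and -0.25. Of the 32 chains, 21 were higher and 11 lower in knockout, with a median of 0.06 against 0.10 for all genes. After median-of-ratios scaling 14 were higher and 18 lower, with a median of -0.04. Without the knockout or the wild-type DSS library, either of which takes the DSS stage out of the genotype estimate, 26 were higher, with a median of 0.30 and 6 chains at an unadjusted p under 0.05, against 9.24% of all genes, but none called.

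Day 112 was then set against steady state. Polyps minus steady state called 1 of 32 chains, Col4a6 at -3.47 ± 0.40 (SE, limma adjusted p = 0.0412), against 0.819% of all genes. Non-polyp tissue minus steady state called the same chain, at -3.43 ± 0.40 (limma adjusted p = 0.0495), against 0.326% of all genes. Its adjusted p ran from 0.00485 to 0.428 for polyps and from 0.0170 to 0.319 for non-polyp tissue over the alternatives. The polyp call was lost when either steady-state, either DSS or either polyp library was left out. Of the omissions, only that of the wild-type non-polyp library kept the non-polyp call. The non-polyp call was also lost with median-of-ratios scaling and with no intensity trend. With no filter on low values neither call held, with limma adjusted p-values of 0.122 for polyps and 0.165 for non-polyp tissue. Wild-type non-polyp tissue held the highest smooth muscle sum, 10514 TPM, with 0.0897 TPM of Col4a6. Xist, the gland markers and the X-linked Col4a6 separated the same 4 libraries from the other 4, and their part in the call was not tested.

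Polyps differed from steady state in more chains at an unadjusted p under 0.05. These were 14 of 32, 5 higher and 9 lower, against 30.5% of all genes. The count was 4 without the steady-state library labelled knockout, 4 without wild-type polyps and 9 without steady-state wild type, against 12.1%, 11% and 19.6% of all genes. Col9a2 was higher by 4.09 ± 1.06 (SE, limma adjusted p = 0.0859) and Col9a3 by 3.62 ± 1.05 (limma adjusted p = 0.0987). Col14a1 was lower at -2.70 ± 0.47 (limma adjusted p = 0.0579), Col4a5 at -2.44 ± 0.47 (limma adjusted p = 0.0610) and Col8a2 at -2.19 ± 0.53 (limma adjusted p = 0.0786). The type VI pair was lower as well, Col6a1 at -1.22 ± 0.33 and Col6a2 at -1.07 ± 0.27. Smooth muscle markers stood at 469 and 756 TPM in knockout and wild-type polyps, against 6894 TPM in the steady-state library labelled knockout and 6203 TPM in steady-state wild type. Their part in the lower chains was not tested.

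When the library labelled knockout non-polyp was left out, 12 chains were called between polyps and steady state, against 25.7% of all genes. The 4 higher were Col9a2, Col9a3, Col17a1 and Col6a4, and the 8 lower were Col4a6, Col4a5, Col14a1, Col8a2, Col28a1, Col20a1, Col6a1 and Col6a2. Leaving out wild-type non-polyp tissue in its place also called 12 chains, against 25.6% of all genes. After either omission the non-polyp stage holds 1 library, which then adds nothing to the residual spread.

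Non-polyp tissue minus steady state had 6 chains at an unadjusted p under 0.05, against 16.5% of all genes, among them Col23a1 at 1.37 ± 0.30 (SE, limma adjusted p = 0.132) and Col4a5 at -1.80 ± 0.47 (limma adjusted p = 0.166). Without wild-type non-polyp tissue 6 chains were called, against 13.3% of all genes, with Col9a2 and Col9a3 higher and Col4a6, Col4a5, Col14a1 and Col8a2 lower. Col9a2 then differed by 4.39, against 2.34 ± 1.06 with both libraries. Without the library labelled knockout non-polyp 0 chains were called, against 0.427% of all genes, and 3 were at an unadjusted p under 0.05, against 15.8%. In that fit Col9a2 differed by 0.28, Col9a3 by -0.36 and Col4a5 by -1.06. Col23a1, a transmembrane collagen, had 8.03 TPM in the library labelled knockout non-polyp and 8.73 TPM in wild-type non-polyp tissue, so it was high in both.

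Polyps minus non-polyp tissue called 0 of 32 chains and 0% of all genes. At an unadjusted p under 0.05 was 1 chain, Col14a1 at -1.48 ± 0.47 (SE, limma adjusted p = 0.858), against 2.94% of all genes. Without the library labelled knockout non-polyp 4 chains were called, against 9.07% of all genes. They were Col9a2 at 3.81 (limma adjusted p = 0.0074), Col9a3 at 3.98 (limma adjusted p = 0.0149), Col14a1 at -2.17 (limma adjusted p = 0.0358) and Col8a2 at -1.67 (limma adjusted p = 0.0467). In this fit wild-type non-polyp tissue alone stands for its stage and is assumed to vary like the other groups.

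**Figure D4:**
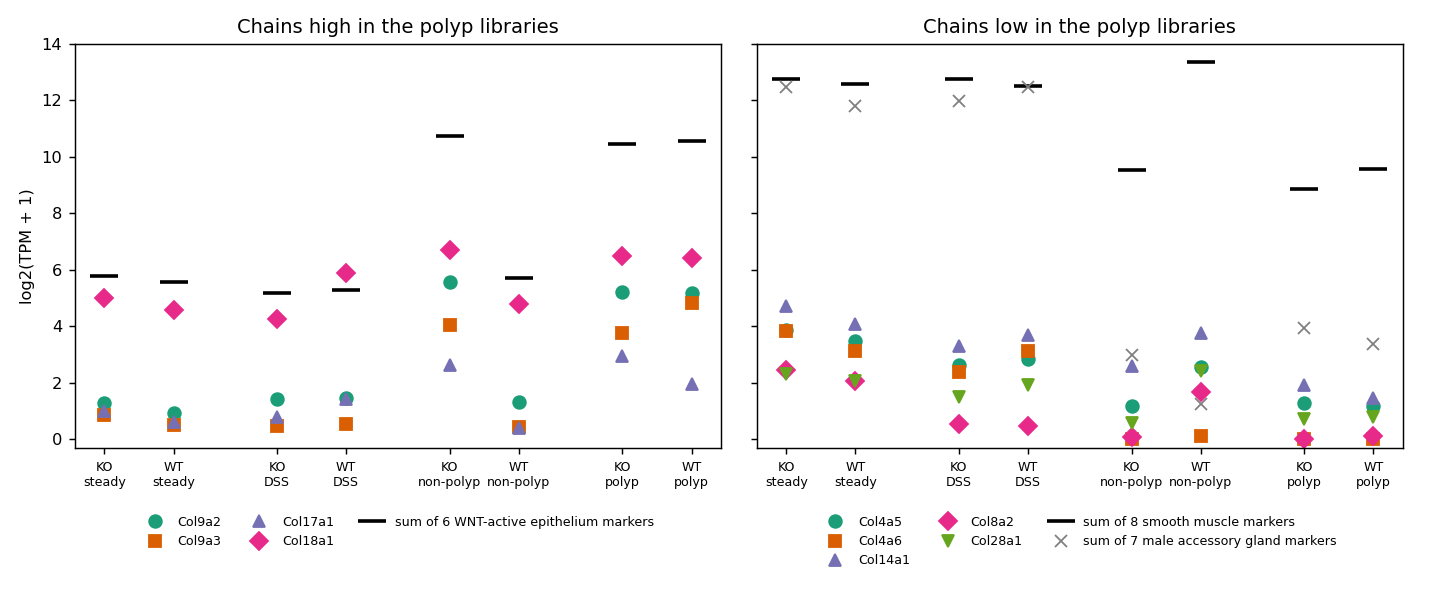
Levels as log2(TPM + 1) (vertical axis) in each of the 8 libraries (horizontal axis, knockout left of wild type in each pair, 1 library per position and no error bars) of 4 chains that were high and 5 that were low in polyps, with the summed WNT-active epithelium (left) and smooth muscle (right) markers as black dashes and the summed male accessory gland markers as grey crosses. Col9a2, Col9a3 and Col17a1 are high where the WNT-active epithelium sum is 1395 TPM or more, and Col4a6 is near 0 in all 4 day 112 libraries, including wild-type non-polyp tissue, where the smooth muscle sum is highest.

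Genes that make, process and bind collagen were described from lists, none of whose members was called in the contrasts of the fit over all 8 libraries. On DSS the lists were lower in knockout, like the chains, where 43.6% of all genes were higher. Of 17 genes for folding and hydroxylating collagen 15 were lower, with a median of -0.32, and the farthest were P4ha3, a proline hydroxylase subunit, with 1.19 TPM in knockout and 3.30 TPM in wild type, Fkbp10, a chaperone, with 11.1 TPM in knockout and 21.7 TPM in wild type, and Crtap with 22.9 TPM in knockout and 39.8 TPM in wild type. All 9 tested genes for propeptide removal and crosslinking were lower, with a median of -0.63. Among them, Pcolce, which speeds propeptide cleavage, had 28.7 TPM in knockout and 60.6 TPM in wild type, and Lox, a crosslinking oxidase, had 5.82 TPM in knockout and 13.1 TPM in wild type. Of 14 genes for matrix bound to fibrils 12 were lower, including Sparc, a collagen-binding protein, with 264 TPM in knockout and 523 TPM in wild type. Receptors were lower in 7 of 9, with Mrc2, which takes up collagen for degradation, at 2.66 TPM in knockout and 7.37 TPM in wild type. Other basement membrane genes were lower in 12 of 14 and the TGF-beta genes in 10 of 11. Among these, Nid2 had 3.70 TPM in knockout and 8.76 TPM in wild type, and Tgfb1 had 22.9 TPM in knockout and 41.1 TPM in wild type.

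At steady state the same lists were mostly higher in the library labelled knockout, by 14 of 17, 7 of 9, 9 of 9 receptors, 13 of 14 fibril-bound, 13 of 14 basement membrane and 9 of 11 TGF-beta genes. In non-polyp tissue they split. The laminin chain gene Lama3 had 32.5 TPM in the library labelled knockout and 3.19 TPM in wild type. In contrast, the fibril-bound proteoglycans Lum and Ogn had 7.49 and 9.53 TPM in the library labelled knockout and 73.4 and 75.2 TPM in wild type. Thus 11 of 14 basement membrane genes were higher and 10 of 14 fibril-bound genes lower, with medians of 0.73 and -0.69. Of all genes 61.4% were higher in this pair, with a median of 0.21. Counts for these lists after median-of-ratios scaling are not given.

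Between polyps and steady state, 9 of 14 fibril-bound genes were lower and 1 higher at an unadjusted p under 0.05, a level that 30.5% of all genes reached. Ogn differed by -3.37 ± 0.74, Lum by -3.34 ± 0.81 and Postn, a collagen-binding protein of fibroblasts, by -2.92 ± 0.50 (SE, limma adjusted p = 0.056 for Postn). Of 14 basement membrane genes 3 were higher and 0 lower at that level, a share no larger than that of all genes, with Lama5 at 1.96 ± 0.47 (limma adjusted p = 0.0785). The collagen receptor gene Itga2 was higher at 1.38 ± 0.33 (limma adjusted p = 0.0783) and Ddr2, a receptor for fibrillar collagen, was lower at -2.83 ± 0.73 (limma adjusted p = 0.0849). None of these genes was called in the fit over all 8 libraries. For these lists the fit without the library labelled knockout non-polyp is not given.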

How the data were processed

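RNA from frozen colon and polyps was made into sequencing libraries with a NEBNext Ultra RNA kit, per the labels' protocols. Per the file headers, the deposited measures of each gene are coverage (a signal per base), FPKM and TPM. The submitters' processing notes name StringTie and the build GRCm38 (mm10), but the aligner, the versions and the gene annotation used were not given in the sources used here. Of these values, TPM was analysed. In 6 files the deposited TPM column also holds loci assembled from the reads, whose TPM has its own total beside the 895587 to 940132 TPM of annotated genes, so that column was treated as a signal and only annotated rows were used.

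Within a library TPM divided by FPKM is 1 fixed ratio. Of 181559 values with FPKM above 0.05, 35 values in 10 genes were off it by more than 0.1%, and these genes, with 13 genes of several rows, were left out. None is a collagen. Read counts are not given. The ratio of deposited coverage to FPKM implies 2.70 to 3.35 gigabases aligned per library. Counting error was not estimated.

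The 16855 genes with a mean of at least 1 TPM were analysed as log2(TPM + 1) with limma 3.58.1 (R 4.3.3, intensity trend) in 1 additive fit of stage and genotype over the 8 libraries, with 3 residual degrees of freedom and Benjamini-Hochberg adjustment over all 16855 genes at 0.05. The residual spread holds differences between animals and any dependence of genotype on stage. The steps were tested on simulated data. Single pairs of libraries were compared as differences, with 2-fold as the limit and no test. Alternatives were a pseudocount of 0.1, no filter, median-of-ratios scaling, no intensity trend, libraries left out and, chosen after the data were seen, assembled loci in place of annotated rows. The members and lists were chosen with earlier results of these data known. Chains with a mean of at least 10 TPM are given in every library, scarcer ones where they differ at least 2-fold between genotypes with at least 1 TPM in either library or were called, and the rest by range. From other lists at most 3 members with the largest difference are named, and some of these are not reported here. Promoter windows come from RefSeq (GRCm38.p6).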

Additional observations from a re-analysis of the deposited data

Results flagged for a closer look

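Col18a1, the endostatin precursor, differed by -1.64 (log2 of TPM + 1, knockout minus wild type) on DSS and by 1.91 in day 112 non-polyp tissue. It was at least 2-fold apart in both pairs and in opposite directions. Col9a3, a type IX chain, differed by 3.61 in non-polyp tissue and by -1.04 in polyps. Both patterns use the library labelled knockout non-polyp, whose WNT-active epithelium markers summed to 1699 TPM, against 52.1 TPM in wild-type non-polyp tissue. Neither difference between stages was tested, as each value compares 1 library with 1 library.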

How the results depend on the processing

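No paired analysis was possible because each group is 1 library and the labels carry no replicate numbers. Leaving out 1 library moved the counts most. Genes called numbered 0 to 1 for genotype, 0 to 0 for DSS, 9 to 2238 for non-polyp minus steady state, 0 to 1529 for polyp minus non-polyp and 0 to 4340 for polyp minus steady state, and collagen chains called 0 to 0, 0 to 0, 0 to 6, 0 to 4 and 0 to 12. Signs turned for Col9a3 for genotype (-0.25 to 1.30, with -0.25 also without both non-polyp libraries) and, for polyp minus non-polyp, Col9a2 (-0.30 to 3.81) and Col8a2 (-1.67 to 0.048). Without both steady-state libraries 1 gene was called for genotype. For non-polyp minus steady state 13 genes were called with no filter, and 0 chains with median-of-ratios scaling, no filter or no intensity trend. For polyp minus steady state 73 genes were called with median-of-ratios scaling, 79 with no trend and 15 with no filter, which also called 0 chains. No filter means more genes tested, and for the others the cause was not tested. Chains 2-fold lower on DSS numbered 2 and chains 2-fold higher in polyps 0 with median-of-ratios scaling. In non-polyp tissue 9 chains were 2-fold higher with a pseudocount of 0.1, and with assembled loci 3 were higher and 2 lower of the 29 that could be compared, with 1 higher in polyps. That chain in polyps was Col20a1, whose highest locus was 19.9 TPM in knockout and 3.96 TPM in wild type. Its annotated rows held 2.07 TPM in knockout and 1.94 TPM in wild-type polyps. With all deposited rows as denominator, which adds the assembled loci, the collagen share was 0.0897%, 0.0751% and 0.0687% in the knockout libraries at steady state, of non-polyp tissue and of polyps, and 0.0671%, 0.0526% and 0.0560% in the wild-type ones. Coverage per gene is deposited but read counts are not, and the precision of a single TPM was not estimated.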
